A study of Mus musculus with 20 samples.

Results

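The 10 genes described here are often read as a migratory and effector signature of T cells, and they were followed through 20 bulk RNA-seq libraries of mouse intraepithelial lymphocytes (IELs). They were the S100 genes S100a4, S100a6, S100a10 and S100a11, the annexin genes Anxa1 and Anxa2, the galectin genes Lgals1 and Lgals3, and Vim and Ahnak. The members were chosen by symbol, 10 of 25933 symbols found in any table, and 9 of the 10 were present in each table. S100a4 was present in the Tcf7 table alone, and Anxa1 in the other 3 tables.

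The cells were TCRαβ+CD8αα+ IELs, T cells that lie between the epithelial cells of the gut, from mice at steady state. Bcl6-RFP/RFP reporter mice gave RFP+CD160+ cells (3 libraries) and RFP-CD160- cells (3 libraries). Whole CD8αα+ αβ IELs came from Bcl6fl/fl Cd8cre, Prdm1fl/fl Cd8cre and Tcf7fl/fl Cd8cre mice (KO, 2 libraries each), and from their Bcl6fl/fl, Prdm1fl/fl and Tcf7fl/fl littermates (WT, 2 libraries each). Another 2 libraries titled LI carry the reporter genotype and the tissue label small intestine, but the labels put them in neither sorted fraction. RFP reports the Bcl6 locus, so Bcl6 and Cd160 themselves differ by the sort. The labels name Cd8cre in every KO and in no WT, so an effect of Cd8cre cannot be told apart from loss of the gene, and they do not describe the promoter that drives it. Ages and separate animals for the libraries are not given in the labels, so the p-values measure the spread between these libraries, which may be technical.

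S100 proteins are small calcium-binding proteins, and annexins bind membrane phospholipids when calcium rises. S100A10 pairs with annexin A2 and S100A11 with annexin A1, complexes that sit at the inner face of the plasma membrane, and AHNAK is a very large scaffold protein that binds the S100A10 and annexin A2 complex. Galectin-1 and galectin-3 bind galactose-containing sugars on surface glycoproteins, and vimentin is the intermediate filament of leukocytes and mesenchymal cells. In circulating T cells, transcripts of these genes are typically high in antigen-experienced cells. Galectin-3 and annexin A2 are also made by gut epithelium and by macrophages.

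The S100 members lie on mouse chromosome 3 (GRCm38, GENCODE vM21), S100a4 close to S100a6 and S100a11 close to S100a10, with S100a4 at chr3:90603771-90606045, S100a6 at chr3:90612882-90624181, S100a11 at chr3:93520488-93526287 and S100a10 at chr3:93555080-93564643, all on the plus strand. Anxa2 lies at chr9:69453620-69491795, Lgals3 at chr14:47367751-47386160, Lgals1 at chr15:78926725-78930465, Vim at chr2:13573927-13582826 and Ahnak at chr19:8989284-9076914, all on the plus strand, and Anxa1 lies on the minus strand at chr19:20373428-20390944. Promoter windows from RefSeq (GRCm38.p6, 250 bases before to 50 after the start site) matched 8 of the 10 members, all but S100a10 and Lgals1. The windows of S100a11, Anxa2 and Lgals3 are shown because these genes carry most of the differences described further on. Capitals mark the letters of a searched motif.
S100a11: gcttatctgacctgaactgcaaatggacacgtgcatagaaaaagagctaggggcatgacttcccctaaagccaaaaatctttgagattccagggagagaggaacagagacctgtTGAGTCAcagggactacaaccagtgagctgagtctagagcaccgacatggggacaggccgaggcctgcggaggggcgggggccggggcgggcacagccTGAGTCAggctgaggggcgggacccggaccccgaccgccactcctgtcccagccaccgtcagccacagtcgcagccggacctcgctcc
Anxa2: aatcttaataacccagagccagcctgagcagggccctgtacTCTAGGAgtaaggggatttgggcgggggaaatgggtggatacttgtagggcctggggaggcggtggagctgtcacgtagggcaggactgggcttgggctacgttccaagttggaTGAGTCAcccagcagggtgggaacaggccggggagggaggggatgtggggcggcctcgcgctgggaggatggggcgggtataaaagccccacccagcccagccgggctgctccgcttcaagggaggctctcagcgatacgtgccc
Lgals3: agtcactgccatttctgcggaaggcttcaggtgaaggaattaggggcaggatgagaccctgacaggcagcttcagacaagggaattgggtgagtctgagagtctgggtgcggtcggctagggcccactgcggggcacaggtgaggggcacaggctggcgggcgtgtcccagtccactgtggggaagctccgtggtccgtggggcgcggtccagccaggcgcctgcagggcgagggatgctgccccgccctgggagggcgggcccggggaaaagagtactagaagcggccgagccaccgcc
The windows are chr3:93520246-93520545, chr9:69453433-69453732 and chr14:47373610-47373909, each read on the plus strand, which is the strand of the gene. The motifs searched, 5 in all and on both strands, were TGANTCA (AP-1), TGTGGT (RUNX), CTTTGAT (TCF), GNGAAAG (BLIMP1 core) and TCCTAGA (BCL6 core). Their letters do not overlap one another in the printed windows. The S100a11 window held TGANTCA at bases 115 to 121 and 213 to 219, counted from the left end. The Anxa2 window held TGANTCA at bases 156 to 162 and TCCTAGA on the reverse strand at bases 42 to 48. The Lgals3 window held none of the motifs. It lies inside the gene span given above, away from its left end, so letters at that annotated start were not searched. Among 32851 RefSeq mouse promoter windows of the same length, 7.81% held TGANTCA and 4.23% held TCCTAGA. Of the other members with a window, S100a6 alone held a match, to TGTGGT at 3 positions, a motif found in 16.8% of all windows. CTTTGAT, found in 3.73% of all windows, and GNGAAAG, found in 22.6%, matched in no member's window. A match describes letters only.

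Library depth was recovered from the values as whole reads and is given in units of 1000000 reads. It was 14.5 to 16.9 in RFP+CD160+ libraries, 16.5 to 17.4 in RFP-CD160- libraries, 30.0 and 22.5 in the LI libraries, 22.1 to 23.0 for the Bcl6 KO and WT libraries, 30.1 to 38.4 for those of Prdm1 and 41.0 to 48.2 for those of Tcf7. The reporter and Bcl6 tables hold FPKM (reads scaled to gene length and depth), and the Prdm1 and Tcf7 tables hold reads divided by a size factor for each library (scaled reads), which carry no gene length. The depths above are therefore unlike measures. For the reporter and Bcl6 libraries they are the read totals that the FPKM values imply, and for the Prdm1 and Tcf7 libraries the sums of reads over listed genes. The sort and the Prdm1 and Tcf7 deletions left their marks on the sorted or deleted genes. Bcl6 had 13.7, 14.2 and 18.0 FPKM in RFP+CD160+ libraries, against 3.44, 3.30 and 3.59 FPKM in RFP-CD160- libraries. Prdm1 had 640 and 362 scaled reads in Prdm1 KO libraries, against 6092 and 5117 in Prdm1 WT libraries, and Tcf7 had 7757 and 7993 scaled reads in Tcf7 KO libraries, against 15430 and 15606 in Tcf7 WT libraries. Bcl6 had 0.550 and 0.638 FPKM in Bcl6 KO libraries, against 0.772 and 0.735 FPKM in Bcl6 WT libraries, a weak check because the gene was low in both. The IEL identity genes were high throughout the reporter table, with Cd8a at 542.5 to 612 FPKM in RFP+CD160+ libraries, 871 to 946 FPKM in RFP-CD160- libraries and 281 to 297 FPKM in the LI libraries. Cd8b1, which marks conventional CD8αβ T cells, stayed at or below 1.27 FPKM there. Bcl6 KO libraries 1 and 2 differed from each other more than the pair of any other group, with a chi-square per gene of 69.1 on the recovered reads, against 18.7 for the Bcl6 WT libraries. Bcl6 WT library 2 listed 10 genes at 0, where the other libraries of that table listed 257 to 434. In the LI libraries the enterocyte genes Fabp1, Apoa1, Apoa4, Alpi and Sis were all at 0, although the tissue label is small intestine.

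The first comparison asks how cells sorted as positive for the Bcl6 reporter and CD160 differ from cells sorted as negative for both. Cd160 RNA had 242, 240 and 231 FPKM in RFP+CD160+ libraries, against 69.8, 61.9 and 66.3 FPKM in RFP-CD160- libraries, so it was not absent. Lgals3, S100a11, S100a10 and Anxa2 were lower in RFP+CD160+ cells, with Lgals3 6.01-fold lower, S100a11 2.11-fold, S100a10 1.48-fold and Anxa2 1.36-fold. Lgals1 and Ahnak also passed the test as lower, but less securely, and Vim did not pass. S100a6 and Anxa1 were close to absent in both fractions. Of the 10 members, 9 were in the table and 7 passed the filter of at least 1 FPKM in 3 libraries. Of these, 6 were called lower and 0 higher by limma at a Benjamini-Hochberg adjusted p under 0.05, where 21.6% of the 9717 genes tested were called lower and 16.4% higher. In 5 of the 7 the fractions did not overlap, with RFP+CD160+ below, as in 28.5% of all genes tested. Both counts include Lgals1, which passed the filter mainly through the RFP-CD160- libraries, where it is higher. The median log2 fold change of the 7 was -0.57, against -0.03 over all genes tested. Scaling each library to the same total turned the split of all genes from 1591 higher and 2098 lower to 3300 higher and 1171 lower and moved the median of all genes by 0.14 on the log2 scale. Under that scaling Lgals3, S100a11, S100a10 and Anxa2 remained called lower.

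Lgals3 encodes galectin-3, a galectin found in the cytosol and outside the cell. It had 12.0, 14.4 and 14.1 FPKM in RFP+CD160+ libraries, against 96.3, 73.6 and 73.9 FPKM in RFP-CD160- libraries. The fractions were far apart, with every RFP+CD160+ library below every RFP-CD160- library. The means were 13.5 ± 1.29 and 81.3 ± 13.0 FPKM (SD, n = 3 each), a log2(FPKM + 1) fold change of -2.50 (SE 0.11, limma adjusted p = 2.7e-06). By mean FPKM Lgals3 ranked 3671 of the 12975 genes listed in RFP+CD160+ cells and 449 in RFP-CD160- cells.

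S100a11 and S100a10 were the most abundant members per length. S100a11 had 123, 122 and 113.5 FPKM in RFP+CD160+ libraries, against 265, 253 and 239.9 FPKM in RFP-CD160- libraries. The fractions did not overlap, with S100a11 at a log2 fold change of -1.07 (SE 0.06, limma adjusted p = 7.0e-06). S100a10 had 99.2, 95.6 and 87.7 FPKM in RFP+CD160+ libraries, against 141, 139 and 139 FPKM in RFP-CD160- libraries. Its fractions did not overlap either, with a log2 fold change of -0.57 (SE 0.06, limma adjusted p = 1.7e-04). In RFP-CD160- cells S100a11 ranked 98 and S100a10 ranked 234 of 12975 genes by mean FPKM.

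Anxa2, the partner of S100A10 at the membrane, was lower by less. It had 9.57, 9.11 and 10.2 FPKM in RFP+CD160+ libraries, against 13.7, 13.5 and 12.1 FPKM in RFP-CD160- libraries, with no overlap and a log2 fold change of -0.41 (SE 0.07, limma adjusted p = 0.0023). Anxa2 overlaps the antisense gene Gm16144 in the annotation, and whether reads were counted by strand is not given in the sources used here. Ahnak, the scaffold that binds this pair, had 7.52, 6.10 and 5.04 FPKM in RFP+CD160+ libraries, against 7.27, 10.5 and 9.10 FPKM in RFP-CD160- libraries. The fractions of Ahnak overlapped, and its log2 fold change of -0.46 (SE 0.15, limma adjusted p = 0.041) missed the threshold when either of RFP+CD160+ libraries 2 and 3, or either of RFP-CD160- libraries 2 and 3, was left out (adjusted p 0.096 to 0.12).

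Lgals1 encodes galectin-1, which is secreted and crosslinks surface glycoproteins. It had 0.296, 0.838 and 1.57 FPKM in RFP+CD160+ libraries, against 8.72, 2.13 and 2.42 FPKM in RFP-CD160- libraries, and these rest on 4, 11 and 24 reads against 130, 32 and 38 reads. The fractions did not overlap, but RFP-CD160- library 1 stood well above the other two. Lgals1 passed the filter mainly through the RFP-CD160- libraries, where it is higher, so its place among the called members is partly fixed by the filter. The fitted log2 fold change of -1.36 (SE 0.43) had a limma adjusted p of 0.037. Without RFP+CD160+ library 1 the adjusted p was 0.13 (log2 fold change -1.11), and without RFP+CD160+ library 2 it was 0.088 (log2 fold change -1.36). Without RFP-CD160- library 1, the highest, the log2 fold change was -0.84 and the adjusted p 0.040.

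Vim had 43.1, 43.4 and 47.6 FPKM in RFP+CD160+ libraries, against 53.0, 41.7 and 41.5 FPKM in RFP-CD160- libraries. The fractions overlapped, with a log2 fold change of -0.01 (SE 0.10, limma adjusted p = 0.92). S100a6, a calcium sensor that is abundant in many activated cells, had 0.488, 0.201 and 0.173 FPKM in RFP+CD160+ libraries, against 0.487, 0.219 and 0.253 FPKM in RFP-CD160- libraries, from 4 to 10 and 5 to 11 reads. Anxa1, which is known for restraining inflammation, had 1 to 4 reads per library in RFP+CD160+ cells and 0 to 2 in RFP-CD160- cells. Neither of these 2 genes was tested, and at this depth no difference in them was detectable.

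The LI libraries resembled neither fraction in every gene. S100a6 had 3.26 and 2.05 FPKM there (134 and 63 reads), above every sorted library. Anxa2 (16.3 and 15.2 FPKM), Vim (66.8 and 64.0 FPKM) and Ahnak (21.1 and 19.9 FPKM) were likewise above all 6 sorted libraries. S100a10 had 81.9 and 80.2 FPKM and S100a11 109 and 108 FPKM, both below all 6. Lgals3 had 23.0 and 21.5 FPKM and Lgals1 5.50 and 5.36 FPKM, within the span of the sorted libraries. Anxa1 had 6 and 2 reads. Because the LI libraries belong to no labelled group, no test was made with them.

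**Figure D1:**
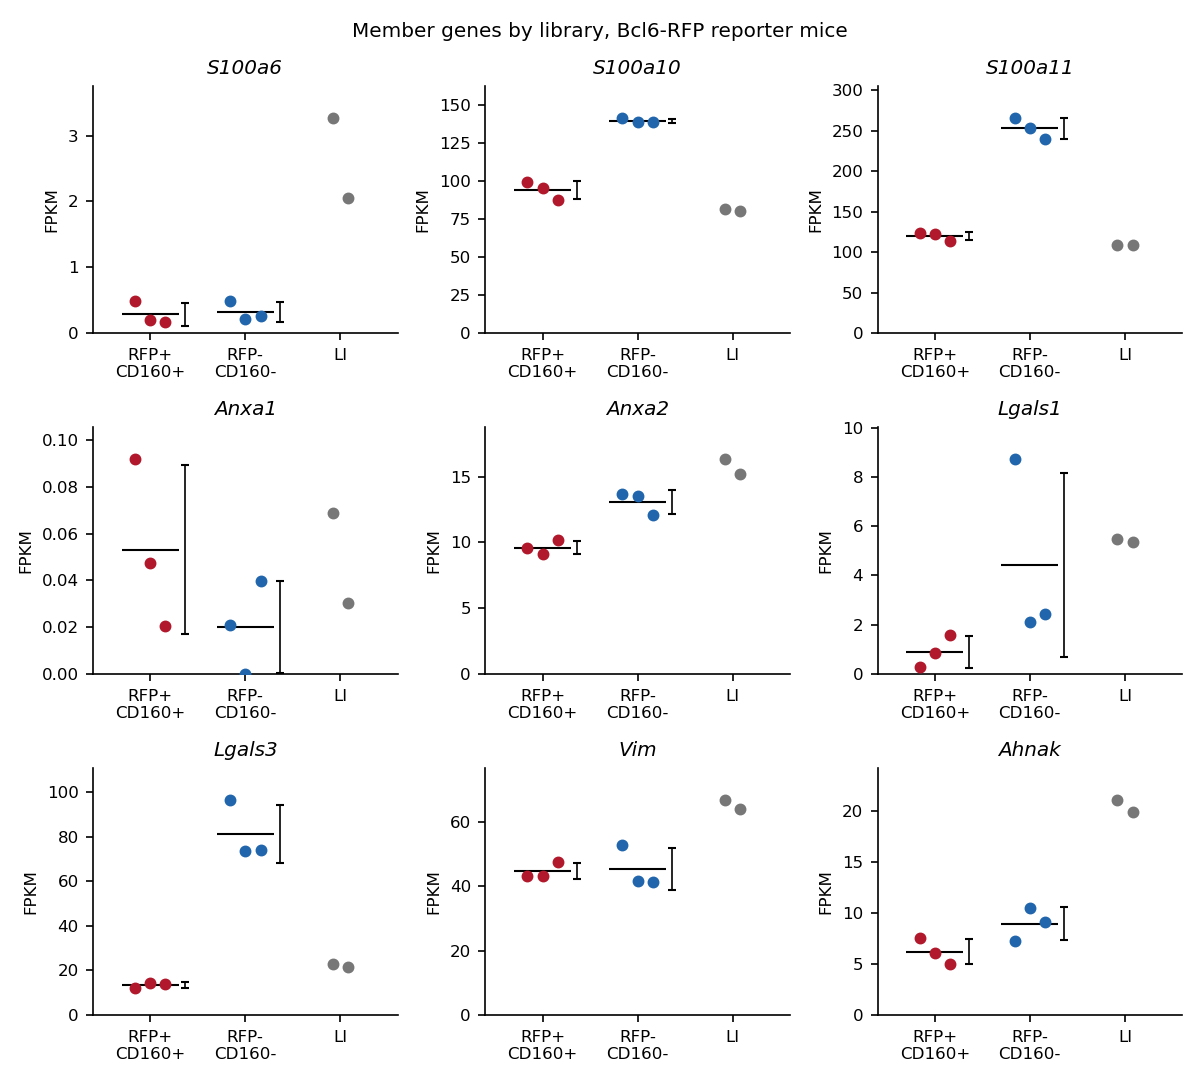
FPKM of the 9 members listed in the reporter table, 1 panel a gene, in RFP+CD160+, RFP-CD160- and LI libraries. Points are libraries, lines are means and bars are SDs for the sorted fractions (n = 3 each), and each axis starts at 0. The RFP+CD160+ points of Lgals3, S100a11, S100a10 and Anxa2 all lie below the RFP-CD160- points, those of Vim and Ahnak overlap, and S100a6 reaches 3.26 FPKM in an LI library.

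Markers of other cells were read beside these values, since in bulk samples fewer cells of a type and less RNA per cell cannot be told apart. Of 17 myeloid markers, 12 were in the reporter table, and their summed level was 27.3 to 36.5 FPKM in RFP+CD160+ libraries and 93.3 to 102 FPKM in RFP-CD160- libraries. Of the 6 tested, 4 were lower in RFP+CD160+ cells, namely Fcgr3, Itgax, Itgam and Cd68, and 0 higher. Itgam, like the epithelial Krt18, passed the filter only through the RFP-CD160- libraries, so its direction was fixed by the filter. The macrophage-defining genes were near 0 in both fractions, with Lyz2 at most 0.764 FPKM in RFP+CD160+ and 0.506 FPKM in RFP-CD160- libraries, C1qa at most 0.171 and 0.0582 FPKM, and Csf1r at most 0.0347 and 0.0312 FPKM. The summed level of the 16 epithelial markers was 101 to 115 FPKM in RFP+CD160+ libraries and 96.5 to 169.5 FPKM in RFP-CD160- libraries, with 1 of 8 tested higher (Cdh1) and 2 lower (Epcam and Krt18). Of the 7 IEL identity genes tested, Cd3e, Cd3g, Cd8a and Itgae were also lower in RFP+CD160+ cells and 0 were higher, with a median log2 fold change of -0.48 over the 7. Over all 9717 genes tested, 21.6% were called lower and 16.4% higher, and the epithelial counts are near those shares. The part of myeloid or epithelial RNA, or of IEL genes as a whole, in the member differences was not tested.

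Loss of BLIMP1, the repressor encoded by Prdm1, was the second setting in which Lgals3 was lower. In Prdm1 KO cells Lgals3 was the 1 member called, lower, of the 7 that passed the filter of 50 scaled reads in 2 libraries, where 2.54% of the 10969 genes tested were called lower and 4.29% higher. The median log2 fold change of these 7 was -0.33, against -0.04 over all genes tested. Lgals3 had 1158 and 1715 scaled reads in Prdm1 KO libraries, against 2760 and 3290 scaled reads in Prdm1 WT libraries. Both KO libraries lay below both WT libraries, and the means were 1436 ± 394 and 3025 ± 375 scaled reads (SD, n = 2 each). The difference was 2.11-fold, a log2 fold change of -1.10 (SE 0.19, limma adjusted p = 0.022).

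S100a10 and S100a11 were also lower on average in Prdm1 KO libraries, without passing the test. S100a10 had 2649 and 2833 scaled reads in Prdm1 KO libraries, against 3187 and 3718 in Prdm1 WT libraries, a log2 fold change of -0.33 (SE 0.11, limma adjusted p = 0.15). S100a11 had 182 and 239 scaled reads in KO libraries, against 301 and 314 in WT libraries, a log2 fold change of -0.56 (SE 0.20, limma adjusted p = 0.19). For both genes the KO and WT libraries did not overlap, which held with KO below WT for 30.6% of all genes tested. With the library number as a replicate block, limma called S100a10 (adjusted p = 0.0095), S100a11 (0.048) and Ahnak (2.7e-04) lower. That fit called 10.7% of all genes tested lower, and library numbers were not shown to pair samples.

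Ahnak had 7162 and 4987 scaled reads in Prdm1 KO libraries, against 14428 and 6836 in Prdm1 WT libraries. WT library 2 lay below KO library 1, and the log2 fold change of -0.73 (SE 0.34) had a limma adjusted p of 0.28. Without KO library 1 the adjusted p was 0.033 (log2 fold change -0.99), and without WT library 2 it was 0.0012 (-1.27). Without KO library 2 it was 0.45 (-0.47), and without WT library 1, the highest, it was 0.61 (-0.19). Anxa2 had 1197 and 1325 scaled reads in KO libraries, against 1146 and 1429 in WT libraries, and Vim had 8395 and 9850 in KO libraries, against 6992 and 9871 in WT libraries. These overlapped, as did Lgals1, with 41.3 and 55.1 scaled reads in KO libraries and 35.2 and 67.3 in WT libraries. S100a6 had 21.2 and 6.24 scaled reads in KO libraries, against 12.4 and 3.45 in WT libraries. Anxa1 had 4.24 and 0 in KO libraries, against 2.07 and 0 in WT libraries, so both genes stayed below the filter.

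The Prdm1 libraries also differed in markers of other cells. Of the 16 epithelial markers, 11 were higher in Prdm1 KO cells and 0 lower, with Krt8, a keratin of simple epithelia, at 1012 ± 117 scaled reads in KO and 224.4 ± 36.7 in WT libraries (SD, n = 2 each). Their summed level was 19520 to 20150 scaled reads in KO libraries and 14620 to 15800 in WT libraries. The summed level of the myeloid markers was 7965 to 8654 in KO libraries and 12780 to 14880 in WT libraries. Of the 9 tested, Fcgr3, Itgam and Itgax were lower and H2-Aa was higher, with a median log2 fold change of 0.23 over the 9. Itgax alone had 5809 to 5995 scaled reads in KO and 9598 to 11970 in WT libraries. Of the macrophage-defining genes, Lyz2 had 92.2 and 250.5 scaled reads in KO libraries, against 40.3 and 44.0 in WT libraries, while C1qa had at most 4.24 in KO and 3.45 in WT libraries and Csf1r at most 7.28 in KO and 8.63 in WT libraries. Over all genes tested in the Prdm1 experiment, 4.29% were called higher and 2.54% lower. The part of epithelial or myeloid RNA in the member values was not tested.

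In Tcf7 KO cells, whose deleted gene encodes the factor TCF1, Lgals3 was higher. Lgals3 was the 1 member called higher of the 7 that passed the filter, and 0 were called lower, where 1.49% of the 15210 genes tested were called higher and 1.23% lower. The median log2 fold change of the 7 was 0.06, against 0.00 over all genes tested. Lgals3 had 4742 and 4697 scaled reads in Tcf7 KO libraries, against 3889 and 3544 in Tcf7 WT libraries, with no overlap, as for 20.9% of all genes tested with KO above WT. The difference was 1.27-fold, a log2 fold change of 0.35 (SE 0.06, limma adjusted p = 0.0065).

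The other members of the Tcf7 table did not pass. Anxa2 had 1773 and 1626 scaled reads in Tcf7 KO libraries, against 1981 and 1993 in Tcf7 WT libraries (log2 fold change -0.23, limma adjusted p = 0.18). Vim had 10730 and 10004 scaled reads in KO libraries, against 11478 and 11081 in WT libraries (log2 fold change -0.12, limma adjusted p = 0.35). In both genes the KO libraries lay below the WT libraries, as for 20.7% of all genes tested. S100a10 had 5308 and 4976 scaled reads in KO libraries, against 5691 and 4862 in WT libraries, and S100a11 had 660 and 529 in KO libraries, against 498 and 586 in WT libraries, both overlapping. Ahnak had 9708 and 10003 scaled reads in KO libraries, against 8358 and 10705 in WT libraries, with a limma adjusted p of 0.85 that was 0.0046 without WT library 2 (log2 fold change 0.24). Lgals1 was low, with 71.6 and 55.8 scaled reads in KO libraries, against 49.5 and 50.8 in WT libraries (log2 fold change 0.33, limma adjusted p = 0.79).

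S100a4, a metastasis-associated S100 gene that is typically high in memory T cells, could be read in the Tcf7 table alone. It had 0 and 2 reads in Tcf7 KO libraries, against 4 and 0 reads in Tcf7 WT libraries. S100a6 had 19 and 41 reads in KO libraries, against 8 and 24 reads in WT libraries, below the filter. By mean level per length S100a4 ranked 19436 of 21239 genes in Tcf7 KO and 18261 in Tcf7 WT cells, and S100a6 ranked 14608 and 15709. S100a4 shares sequence on its strand with the annotated gene Gm42674, so its reads may be split. In the Tcf7 libraries the summed epithelial level was 28920 to 28990 scaled reads in KO and 25360 to 25390 in WT libraries, with 2 of 16 markers higher (Fabp1 and Muc2). The summed myeloid level was 30260 to 30690 in KO and 27870 to 28090 in WT libraries, with 2 of 8 tested higher (Fcgr3 and Itgam). Over all genes tested in the Tcf7 experiment, 1.49% were called higher and 1.23% lower. The part of epithelial or myeloid RNA in the Lgals3 difference was not tested.

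The Bcl6 KO comparison gave no called member. Bcl6 RNA was low in KO and WT libraries alike, so the deletion itself was only weakly checked. In Bcl6 KO cells 0 of the 7 members that passed the filter were called by limma, and edgeR on the recovered reads called 0. Over all genes, limma called 0.418% of the 9573 tested in either direction (0.0313% higher and 0.387% lower), and edgeR 0.203% of 12319. An unadjusted p under 0.05 was found for 0 of the 7 members and for 559 of the 9573 genes, so 0 of 7 is near that share. Lgals3 had 220.7 and 159.9 FPKM in Bcl6 KO libraries, against 168.8 and 169.6 FPKM in Bcl6 WT libraries, so the KO libraries spanned the WT libraries. S100a11 had 370.1 and 227 FPKM in KO libraries, against 294 and 316 FPKM in WT libraries, and S100a10 had 277 and 235 FPKM in KO libraries, against 264 and 229.9 FPKM in WT libraries. The KO libraries disagreed with each other more than the WT libraries did for Lgals3, S100a11 and Anxa2.

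Anxa2 had 33.1 and 24.9 FPKM in Bcl6 KO libraries, against 30.2 and 31.01 FPKM in Bcl6 WT libraries. Vim had 22.8 and 19.1 FPKM in KO libraries, against 23.6 and 25.6 FPKM in WT libraries (log2 fold change -0.23, limma adjusted p = 0.95), and Lgals1 had 8.45 and 8.78 FPKM in KO libraries, against 9.87 and 10.1 FPKM in WT libraries (log2 fold change -0.19, limma adjusted p = 0.95). In these 2 genes the KO libraries lay below the WT libraries, as for 14.0% of all genes tested. Ahnak had 2.49 and 4.07 FPKM in KO libraries, against 2.54 and 1.92 FPKM in WT libraries, and S100a6 had 0.876 and 0.967 FPKM in KO libraries, against 0.572 and 0.860 FPKM in WT libraries. Without KO library 1, where the filter then asks for 1 library, Ahnak (log2 fold change 0.66, limma adjusted p = 0.037) and Anxa1 (1.04, 0.0078) were called higher and S100a11 lower (-0.42, 0.024). That fit rests on KO library 2 alone and called 7.37% of 9902 genes higher and 8.4% lower. Anxa1 had 14 and 92 reads in KO libraries, against 13 and 9 reads in WT libraries, so a single KO library held most of its reads. That library, KO 2, also had more RNA of some myeloid genes, though not of all. S100a8, a neutrophil and monocyte S100 gene, had 4.86 and 36.6 FPKM in KO libraries, against 2.32 and 5.99 FPKM in WT libraries, and Lyz2 had 6.71 and 22.7 FPKM in KO libraries, against 4.59 and 6.08 FPKM in WT libraries. Itgax had 13.9 and 9.97 FPKM in KO libraries, against 12.2 and 13.8 FPKM in WT libraries. Fcgr3 had 122 and 123 FPKM in KO libraries, against 81.1 and 83.2 FPKM in WT libraries. The summed level of the 16 myeloid markers listed was 182.7 to 227 FPKM in KO and 129.5 to 146 FPKM in WT libraries, with 0 of 10 tested called, and their part in the Anxa1 reads was not tested.

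**Figure D2:**
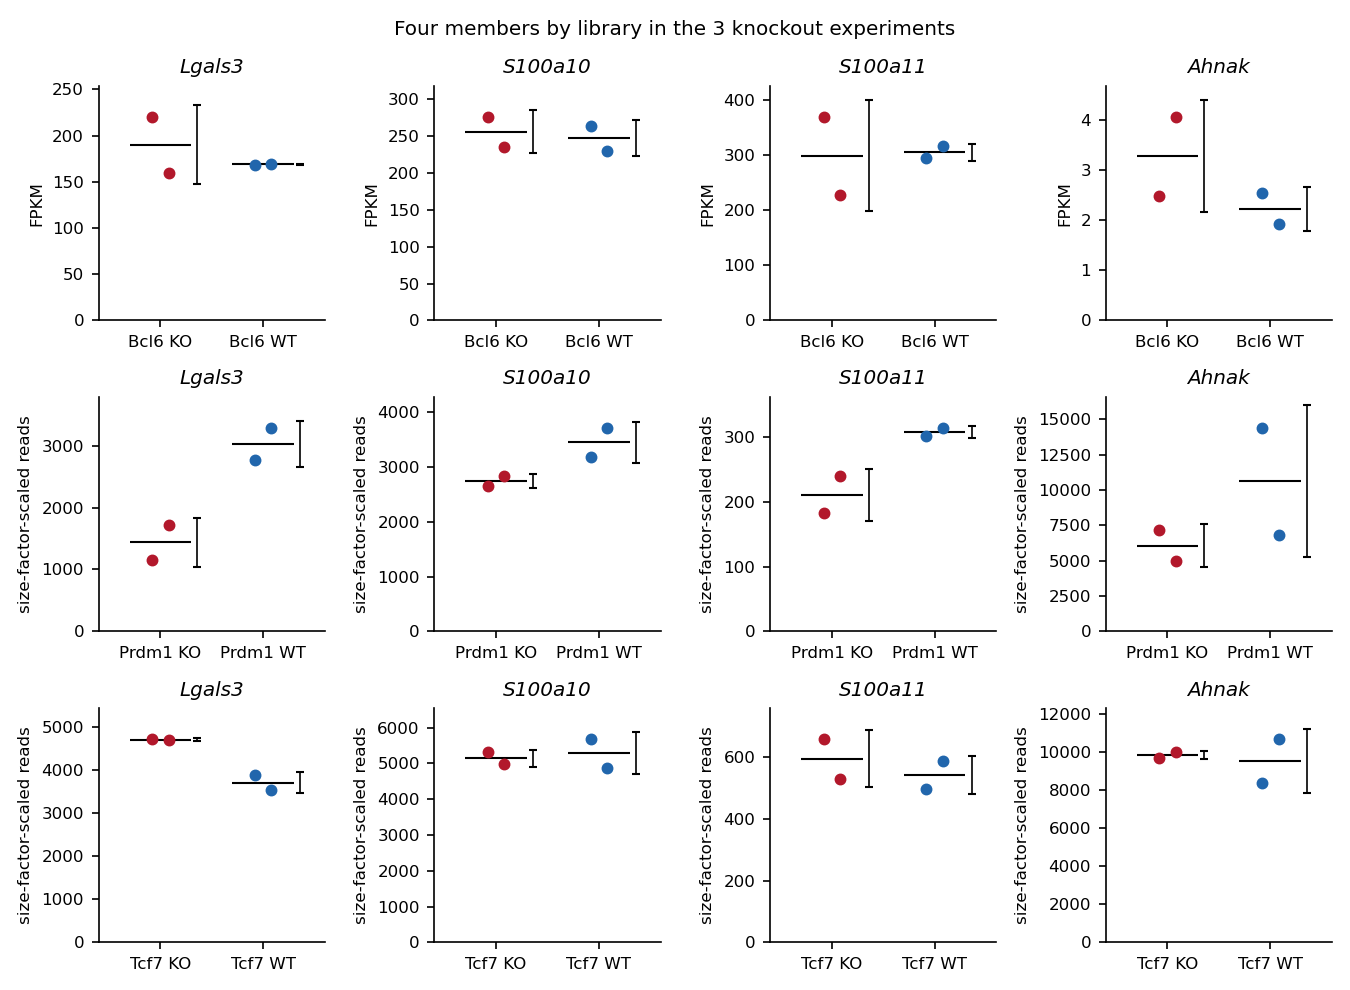
Lgals3, S100a10, S100a11 and Ahnak by library in the knockout experiments, with KO left of WT. Points are libraries, lines are means and bars are SDs (n = 2 each), in FPKM in the Bcl6 row and in scaled reads in the Prdm1 and Tcf7 rows. Lgals3 lies lower in Prdm1 KO (1158 and 1715 against 2760 and 3290 scaled reads) and higher in Tcf7 KO (4742 and 4697 against 3889 and 3544), while the Bcl6 KO points span the WT points.

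**Figure D3:**
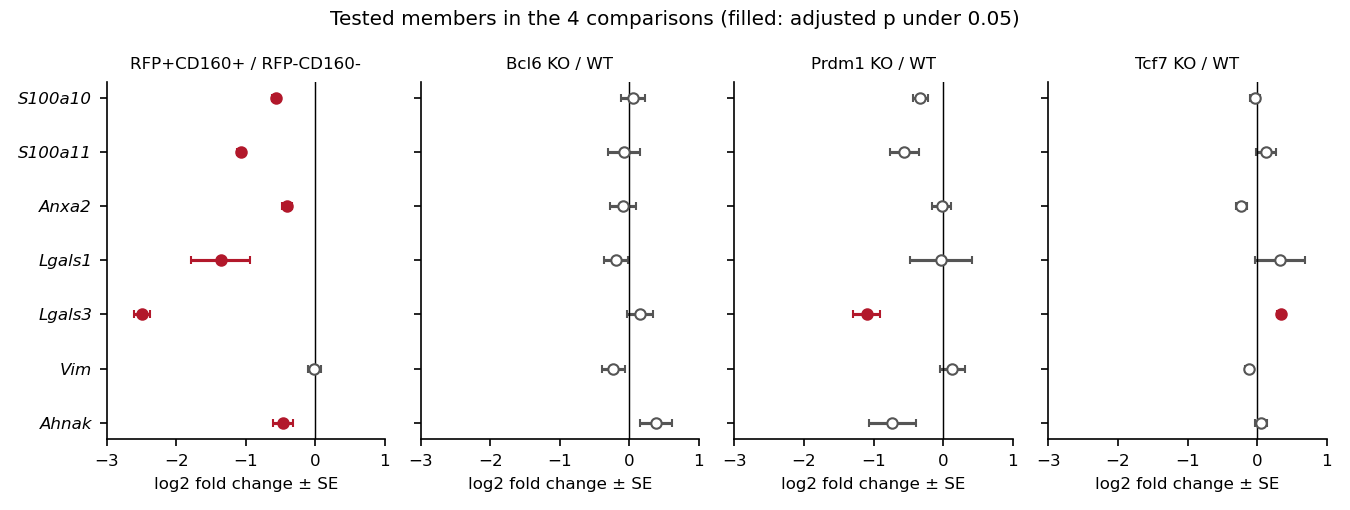
Log2 fold change of the 7 tested members in each comparison, on the log2(value + 1) scale, tested by limma. Bars are SEs and filled points have an adjusted p under 0.05. Lgals3 is filled in the reporter (-2.50), Prdm1 (-1.10) and Tcf7 (0.35) panels, and no point is filled in the Bcl6 panel.

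Other genes of the same families were less often listed or tested. In RFP+CD160+ cells, 1 of 2 tested S100 genes outside the members was called lower and 0 higher, namely S100a13, which takes part in release of proteins without a signal sequence, at 38.7 ± 4.93 FPKM in RFP+CD160+ and 59.2 ± 6.20 FPKM in RFP-CD160- libraries (SD, n = 3 each, log2 fold change -0.60, limma adjusted p = 0.0027). Of 5 tested annexins, 1 was called lower and 0 higher. It was Anxa4, named after its values were seen because it fell below the level set for naming, at 3.42 ± 0.32 FPKM in RFP+CD160+ and 6.05 ± 0.023 FPKM in RFP-CD160- libraries (log2 fold change -0.68, limma adjusted p = 2.4e-04). Of 5 tested galectins, 1 was called lower and 0 higher, namely the galectin-like gene Lgalsl, at 8.19 ± 0.46 FPKM in RFP+CD160+ and 13.2 ± 0.57 FPKM in RFP-CD160- libraries (log2 fold change -0.63, limma adjusted p = 1.5e-04). The median log2 fold change was -0.45 over these S100 genes, -0.17 over the annexins and -0.35 over the galectins. Over all 9717 genes tested, 21.6% were called lower and 16.4% higher, with a median of -0.03. With so few family genes tested, the counts cannot be told apart from those shares.

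In Prdm1 KO cells the galectins moved in both directions when Lgals3 is set beside the rest. Lgals2 and Lgals4, galectins that gut epithelium is known to make, were called higher, 2 of 5 tested with 0 lower. Over all 10969 genes tested in the Prdm1 experiment, 4.29% were called higher and 2.54% lower. Lgals2 had 517 and 696 scaled reads in Prdm1 KO libraries, against 161 and 177 in Prdm1 WT libraries (log2 fold change 1.82, SE 0.20, limma adjusted p = 0.0054). Lgals4 had 1761 and 2241 scaled reads in KO libraries, against 1034 and 1059 in WT libraries (log2 fold change 0.92, SE 0.14, limma adjusted p = 0.014). Of 7 tested annexins, Anxa13, an annexin of gut epithelium that was named after its values were seen, was called higher, at 162.6 ± 14.1 scaled reads in KO and 45.5 ± 20.5 in WT libraries (SD, n = 2 each, log2 fold change 1.88, limma adjusted p = 0.033), and 0 were called lower. Anxa13 passed the filter through the KO libraries, where it is higher. Its WT libraries had 60 and 31.1 scaled reads, so its call is partly fixed by the filter. Lgals2, Lgals4 and Anxa13 stood beside 11 of 16 epithelial markers that were higher in the same libraries, and the part of epithelial RNA in them was not tested. None of the 2 other S100 genes tested in Prdm1 KO cells was called. In Tcf7 KO cells 0 of 2 S100 genes, 0 of 7 annexins and 0 of 5 galectins were called by limma, with 0, 2 and 3 at an unadjusted p under 0.05. Of all 15210 genes tested there, 1909 had such a p, and 1.49% were called higher and 1.23% lower. In Bcl6 KO cells 0 of 5, 0 of 6 and 0 of 5 were called by limma, with 1, 0 and 1 at an unadjusted p under 0.05. Of all 9573 genes tested there, 559 had such a p, and 0.418% were called in either direction. At such shares, no call is what so few genes would give.

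Genes of the cytoskeleton and of membrane linkage, the machinery that vimentin and AHNAK belong to, did not move as a block. In RFP+CD160+ cells 5 of 27 tested were called higher and 10 lower, with a median log2 fold change of -0.09. Over all genes tested, 16.4% were called higher and 21.6% lower. Itgb1, the integrin beta-1 chain, had 17.3 ± 0.28 FPKM in RFP+CD160+ and 11.3 ± 0.13 FPKM in RFP-CD160- libraries (SD, n = 3 each, log2 fold change 0.57, limma adjusted p = 6.6e-05). Tmsb10, a thymosin that binds actin monomers, had 522.5 ± 1.5 FPKM in RFP+CD160+ and 335 ± 13.7 FPKM in RFP-CD160- libraries (log2 fold change 0.64, limma adjusted p = 7.8e-05). Lsp1, a leukocyte actin-binding protein, had 46.7 ± 1.6 FPKM in RFP+CD160+ and 67.5 ± 0.44 FPKM in RFP-CD160- libraries (log2 fold change -0.52, limma adjusted p = 9.0e-05). Cd44, a hyaluronan receptor linked to actin, was below the level set for naming and is given after its values were seen, at 7.21 ± 0.53 FPKM in RFP+CD160+ and 2.20 ± 0.16 FPKM in RFP-CD160- libraries (log2 fold change 1.36, limma adjusted p = 8.5e-06). In Prdm1 KO cells 3 of 29 were called higher and 1 lower, where 4.29% of all genes tested were called higher and 2.54% lower. Cd44 had 3262 ± 331 scaled reads in Prdm1 KO and 1164 ± 27.8 in Prdm1 WT libraries (SD, n = 2 each, log2 fold change 1.48, limma adjusted p = 0.0027), and Itgb1 had 2668 ± 58.9 scaled reads in KO and 1773 ± 132 in WT libraries (log2 fold change 0.59, limma adjusted p = 0.021). In Tcf7 KO cells Cd44 was the 1 gene of 29 called, lower, at 754 ± 19.3 scaled reads in Tcf7 KO and 1502 ± 55.6 in Tcf7 WT libraries (log2 fold change -0.99, limma adjusted p = 3.8e-05). Of all genes tested there, 1.49% were called higher and 1.23% lower. In Bcl6 KO cells 0 of 28 were called by limma, with 5 at an unadjusted p under 0.05. Of all 9573 genes tested there, 559 had such a p, and 0.418% were called in either direction.

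Per length, the members kept a wide order of abundance. Within RFP-CD160- cells the mean FPKM ran S100a11 (252.7), S100a10 (139.7), Lgals3 (81.3), Vim (45.4), Anxa2 (13.1), Ahnak (8.95), Lgals1 (4.42) and S100a6 (0.32). In RFP+CD160+ cells S100a11 (119.5) and S100a10 (94.2) again came first, followed by Vim (44.7), Lgals3 (13.5), Anxa2 (9.61), Ahnak (6.22), Lgals1 (0.90) and S100a6 (0.29). Anxa1 came last in both fractions, at 0.053 FPKM in RFP+CD160+ and 0.020 FPKM in RFP-CD160- cells. Among neighbours in these orders, the ranges over 3 libraries overlapped for Lgals1 and S100a6 in RFP+CD160+ cells and for Ahnak and Lgals1 in RFP-CD160- cells, and for no other pair of neighbours. The place of S100a11 depended on the table. Its level per length divided by that of S100a10 was 0.966 to 1.87 over the 12 libraries of the FPKM tables and 0.163 to 0.295 over the 8 libraries of the Prdm1 and Tcf7 tables. The 2 kinds of table were made differently, so the levels of S100a11 are compared only within a table.

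Lgals1 and Vim could be matched to genes of like pattern by the Pearson correlation of log2 values centred on each experiment's mean, over the 18 grouped libraries and 9030 genes tested in all 4 comparisons. The libraries of an experiment share processing and group structure, so these are descriptions. For Lgals1 the highest were Psat1 (0.946), Lamp2 (0.895) and Nmral1 (0.876), and for Vim Mei1 (0.866) and Tuba1b (0.835) were among the highest. S100a6, for which the same was planned, was tested in no comparison.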

How the data were processed

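Sorted IELs were profiled by bulk RNA-seq in 20 libraries, and RNA was extracted with MagZol, per the labels' protocols. Tools listed in the submitters' processing notes, without roles, are DESeq2, RSEM, featureCounts, Subread, Bowtie2 and Trim Galore 0.4.4, with build mm10. The authors deposited FPKM for the reporter and Bcl6 experiments. For the Prdm1 and Tcf7 experiments the authors deposited a signal, reads divided by a library's size factor, under an FPKM name, and the planned limit of 50 was used there. Whole reads were recovered from 96.3 to 97.4% of FPKM values under 10 reads (tolerance 0.02 of a read, lengths from GENCODE vM21) and from 100% of signal values (tolerance 0.01). Depth sets the precision, and values resting on under 10 reads carry large counting error. No pair of libraries of a group agreed within sampling noise (chi-square per gene 4.23 to 69.1).

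Each experiment was fitted alone with limma 3.58.1 in R 4.3.3 (lmFit, eBayes with a trend) on log2(value + 1), so that fold changes of low genes are understated. Genes needed at least 1 FPKM in 3 (reporter) or 2 (Bcl6) libraries, or 50 scaled reads in 2. P-values were two-sided and adjusted by Benjamini-Hochberg over all genes tested, and a call means an adjusted p under 0.05. edgeR 4.0.16 (quasi-likelihood, TMM) on the recovered reads, other pseudocounts, no filter, other scalings, a replicate block and leaving out each library were alternatives. Named genes were the 10 members, up to 3 called genes of each list by smallest p with a mean no lower than 5 FPKM or 250 scaled reads, and the 3 genes of most like pattern, of which 1 is not reported here. The members and the lists were chosen with earlier results of these data known. The lists of stromal, B and plasma, CD4 and CD8αβ and gamma-delta cell markers had 1, 1, 2 and 0 members tested in the reporter experiment (1 lower, 1 lower, 1 higher and none called). Of those tested in Bcl6 KO and in Prdm1 KO cells none was called, and in Tcf7 KO cells 1 was (Cd5, higher). These lists had too few tested genes to set against the shares over all genes given above.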

Additional observations from a re-analysis of the deposited data

How the results depend on the processing

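Of the 8 member calls, 6 held under every alternative run (Lgals3, S100a11, S100a10 and Anxa2 in the reporter experiment, Lgals3 in the Prdm1 and Tcf7 experiments). The adjusted p of Lgals3 ranged from 1.5e-07 to 1.4e-04 in the reporter, 2.7e-06 to 0.035 in the Prdm1 and 1.3e-06 to 0.045 in the Tcf7 experiment. The calls of Lgals1 (adjusted p 0.023 to 0.13) and Ahnak (0.016 to 0.13) in the reporter experiment did not hold throughout. Without the filter they were at 0.062 and 0.066, and Ahnak was at 0.126 with totals rescaled. Calls over all genes moved with these choices, for which the cause was not tested. With totals rescaled the reporter experiment gave 3300 genes higher and 1171 lower. The Bcl6 experiment gave 1 higher when centred on well expressed genes, 24 lower without the filter and 21 lower with edgeR, against 3 higher and 37 lower. Directions of uncalled members reversed as follows. Vim in the reporter experiment was at 0.14 (totals rescaled) and 0.0297 (centred), and -0.0730 to 0.10 with a library left out. In the Prdm1 experiment Anxa2 was at 0.0534 and 0.0440 and Lgals1 at 0.0457 and 0.0380 under the same scalings. With a library left out, Prdm1 values ranged from -0.18 to 0.14 for Anxa2, -0.49 to 0.43 for Lgals1 and -0.12 to 0.38 for Vim. Bcl6 values ranged from -0.0656 to 0.17 for S100a10, -0.42 to 0.28 for S100a11, -0.29 to 0.11 for Anxa2 and -0.0804 to 0.38 for Lgals3. Tcf7 values ranged from -0.15 to 0.0801 for S100a10, -0.0298 to 0.29 for S100a11 and -0.12 to 0.24 for Ahnak. Leaving out a library gave 0 to 2 members higher and 0 to 1 lower in the Bcl6 experiment (4 to 730 and 35 to 832 over all genes). It gave 1 to 2 members lower in the Prdm1 experiment (342 to 721 genes higher and 227 to 534 lower). It gave 1 to 2 members higher in the Tcf7 experiment (123 to 399 and 120 to 357 over all genes). In the knockout experiments such fits leave a lone library that is assumed to vary like the others, and ask for the filter value in 1 library.

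Library numbers were not shown to pair samples. Deviations of same-numbered libraries correlated at -0.25, 0.04 and -0.39 in the reporter experiment. In the Bcl6, Prdm1 and Tcf7 experiments, which have 2 pairs each, the correlations were -0.54, 0.69 and 0.19. Same-numbered libraries of the Prdm1 experiment thus did deviate alike. With the number as a replicate block, 14 genes were higher and 64 lower in the Bcl6 experiment, 1210 and 1176 in the Prdm1 experiment and 495 and 482 in the Tcf7 experiment. The block called 4 members lower in the Prdm1 experiment (Lgals3, S100a10 at adjusted p = 0.0095, S100a11 at 0.048 and Ahnak at 2.7e-04) and 1 lower in the Tcf7 experiment (Vim, 0.049). In the reporter experiment it left Lgals1 at 0.071 and Ahnak at 0.075. Crossing the numbers in the Bcl6 experiment, added after seeing the data, gave 180 genes higher and 272 lower.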
